A study of Bos taurus with 3 samples.

Results

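The 7 genes described here, IL1R1, IL1R2, IL1RAP, IL1RN, IL1A, IL1B and IL18, belong to the interleukin-1 axis, and they were 7 of the 27270 genes counted in single cells of the newborn rumen. They were chosen by name and, with earlier results of these same cells known, by their measured levels across cell classes, so their own levels are a description without a test. The cells came from the rumen of 3 Holstein calves, 1 day old and given no treatment, with 1 droplet library per calf. The tissue was ventral rumen that had been stripped of its muscle layer and dissociated with enzymes, so the cells counted were those that survived this release. Libraries of adult cattle belong to the same study and were not analysed here, which leaves a single group with no contrast of age. All 7 gene symbols matched 1 gene each.

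Interleukin-1 alpha and interleukin-1 beta, the products of IL1A and IL1B, are inflammatory ligands that bind the receptor IL1R1, which signals only after it has joined the accessory chain IL1RAP. The antagonist made from IL1RN occupies IL1R1 without signalling, and IL1R2 is a decoy that binds the ligands but lacks the signalling domain. IL-18, a related ligand stored in many epithelia, acts through a receptor of its own. In the bovine reference annotation of assembly ARS-UCD2.0 the neighbours of IL1R2 on chromosome 11 were MAP4K4 and IL1R1, followed by IL1RL2, IL1RL1, IL18R1 and IL18RAP, and IL1A, IL1B and IL1RN were on the same chromosome. IL1RAP was on chromosome 1 and IL18 on chromosome 15.

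Calves 1, 2 and 3 gave 7529, 12043 and 11656 barcodes with 82263092, 89803289 and 106145091 unique molecular identifiers (UMIs) in total. After barcodes outside 500 to 4000 detected genes and probable doublets had been left out, 4695, 9746 and 9601 cells remained, with medians of 10190, 6491 and 7426 UMIs. The cells were grouped into 21205 epithelial, 1293 endothelial, 446 fibroblast, 314 mural (smooth muscle and pericyte) and 784 immune cells. EPCAM, PECAM1, COL3A1, ACTA2 and PTPRC, defining genes of these classes, were each highest in their own class, at 1.58, 6.89, 197, 48.3 and 3.97 UMIs per 10000. The classes outside the epithelium were unequally filled, since calves 1, 2 and 3 held 9, 80 and 695 immune cells, 16, 214 and 216 fibroblasts and 6, 119 and 189 mural cells. Values of calf 1 in these 3 classes therefore rest on few cells. Pairs of calves shared 21, 29 and 37 barcodes. Levels are UMIs of a gene among 10000 UMIs when all cells of a class in a calf are added up, and errors are SDs over calves. The kit counts the 3′ end of each transcript, so levels were not scaled by gene length, and a level compared between genes still depends on how completely each 3′ end is annotated, which was not tested.

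IL1R2, the decoy, was the most abundant of the 7 genes in epithelial cells and its highest level lay there in every calf. Its epithelial level was 1.33 UMIs per 10000 in calf 1, 2.17 in calf 2 and 3.26 in calf 3, a mean of 2.25 ± 0.967 (SD, n = 3 calves). The levels in endothelial cells were 0.0604, 0.0910 and 0.0893 in the same order, and those in immune cells were 0, 0.249 and 0.324. Every epithelial value lay above every value of the other classes, the highest of which was 0.355 in the 6 mural cells of calf 1, a single UMI. Of all 44069 IL1R2 UMIs in the kept cells, 43858 (99.5%) came from epithelial cells. The same epithelial share was 97.9% for IL1RAP, 90.5% for IL18, 88.6% for IL1R1, 79.5% for IL1RN, 55.2% for IL1A and 2.33% for IL1B.

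**Figure D1:**
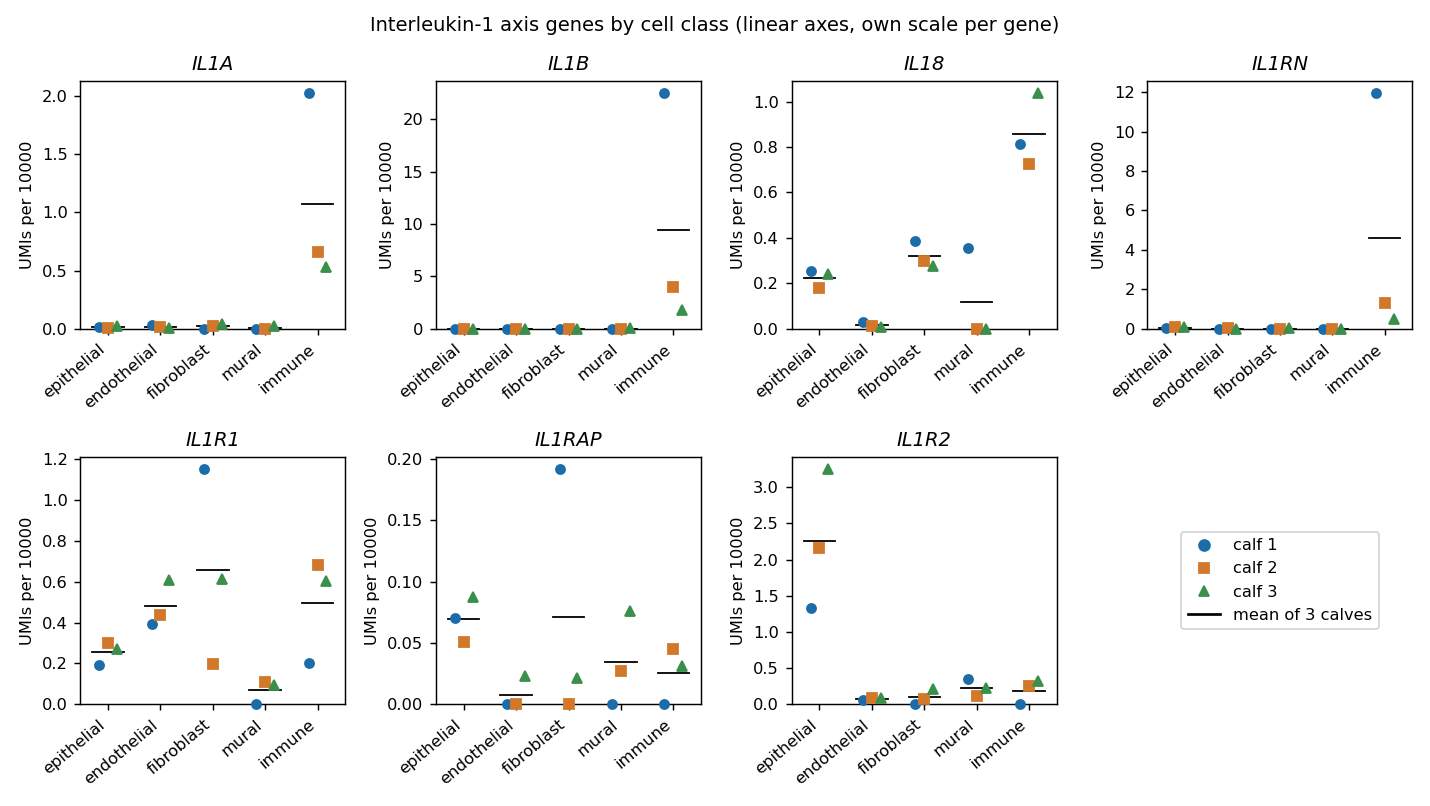
Levels of the 7 genes in UMIs per 10000 (y axis, linear, with its own scale for each gene) in 5 cell classes (x axis), with 1 point per calf and a bar at the mean of the 3 calves. IL1R2 is high in epithelial cells of all 3 calves (1.33 to 3.26), whereas IL1A, IL1B and IL1RN are highest in immune cells, where the top points belong to the 9 immune cells of calf 1.

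Positive cells, those with at least 1 UMI of a gene, were counted after each cell with 2000 or more UMIs had been thinned at random to 2000 UMIs, which left out shallower cells and kept 20688 epithelial, 1160 endothelial, 190 fibroblast, 220 mural and 695 immune cells. IL1R2 was then found in 22.0% of epithelial cells of calf 1 (95% Clopper-Pearson interval 20.8 to 23.2), in 27.1% of calf 2 (26.2 to 28.1) and in 39.2% of calf 3 (38.1 to 40.3). The mean was 29.4% ± 8.83 (SD, n = 3), and without thinning it was 56.2%. These intervals cover counting error only. In endothelial cells the thinned share was 1.37%, with median depths of 7696 UMIs in epithelial and 3991 in endothelial cells. The order of the calves was the same for level and share, and calf 3 was highest in 11 of 11 epithelial clusters with at least 20 cells in every calf.

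Epithelial transcripts can be counted in cells of other classes, so IL1R2 outside the epithelium was set beside keratin genes of the epithelium. In endothelial cells IL1R2 was at 4.55%, 4.20% and 2.74% of its epithelial level in calves 1, 2 and 3, and KRT5, an epithelial keratin, was at 5.82%, 5.23% and 3.38%. The endothelial IL1R2 percentages were thus near those of KRT5, and below them in each calf. In calf 1, KRT5 was at 36.7% of its epithelial level in fibroblasts and at 104% in mural cells. Values of calf 1 in these classes are therefore mixed with epithelial transcripts. In calves 2 and 3 KRT5 was at 9.19% and 7.64% in fibroblasts and at 13.3% and 7.12% in mural cells. In immune cells of calf 3, once a cluster of 21 cells led by KRT15, KRT5 and COL17A1 had been set aside, IL1R2 was at 7.67% of its epithelial level (87 UMIs), against 3.35% for KRT5 and 2.14% for COL17A1. In calf 2 the immune value rested on 2 UMIs, too few to be set against the keratins, and the 9 immune cells of calf 1 held 0 UMIs of IL1R2. The immune value was thus above those of KRT5 and COL17A1 in calf 3. In calves 1 and 2 this could not be read from so few UMIs. Whether epithelial transcripts in other classes came from RNA free in the droplets, from doublets or from misassigned cells was not tested.

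The levels of the signalling receptor IL1R1 in calves 1, 2 and 3 were 0.192, 0.301 and 0.273 in epithelial cells (mean 0.255 ± 0.0563), 0.393, 0.438 and 0.608 in endothelial cells (0.480 ± 0.113) and 0.203, 0.680 and 0.605 in immune cells (0.496 ± 0.257). In fibroblasts the levels were 1.15, 0.197 and 0.614 (0.655 ± 0.480), of which the first was 6 UMIs in 16 cells. The endothelial level was above the epithelial level in each calf, while the orders of fibroblast, immune and endothelial cells overlapped. The fibroblast class had the highest mean over the 3 calves, and without calf 1 the immune class did. After thinning, 7.58%, 7.77% and 12.9% of endothelial cells and 3.82%, 5.79% and 5.44% of epithelial cells were positive.

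The accessory chain IL1RAP, without which IL1R1 does not signal, was low in every class. Its epithelial levels in calves 1, 2 and 3 were 0.0702, 0.0511 and 0.0875 (mean 0.0696 ± 0.0182, 1305 UMIs), and 1.37%, 1.14% and 1.85% of thinned epithelial cells were positive. Endothelial, fibroblast, mural and immune cells held 8, 2, 5 and 13 UMIs of it. Its highest mean, 0.0712 in fibroblasts, rested on 1 UMI in the 16 fibroblasts of calf 1, and without calf 1 the epithelial mean was the highest.

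Of the ligands, IL1B was nearly confined to immune cells, IL1A was found in both immune and epithelial cells, and IL18 was detected in epithelial, immune and fibroblast cells. IL1B reached 22.5, 3.97 and 1.78 UMIs per 10000 in immune cells of calves 1, 2 and 3, and 918 of its 943 UMIs (97.3%) came from that class. Only 22 UMIs were counted in epithelial cells, a level of 0.00114, and 4 of 20688 thinned epithelial cells were positive. Among thinned immune cells 42.9%, 28.6% and 15.0% had an IL1B UMI, the first being 3 of 7 cells.

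IL1A was at 2.03, 0.657 and 0.532 in immune cells and at 0.0148, 0.00459 and 0.0271 in epithelial cells of calves 1, 2 and 3. The epithelial counts were small in each cell but, over many cells, made up 293 of 531 UMIs. IL18 was at 0.256, 0.180 and 0.240 in epithelial cells (mean 0.225 ± 0.0396), at 0.811, 0.725 and 1.04 in immune cells (0.858 ± 0.162) and at 0.385, 0.296 and 0.275 in fibroblasts (0.319 ± 0.0581, 27 UMIs). The immune level of IL18 was the highest in each calf, and the endothelial level was 0.0171, from 7 UMIs. An IL18 UMI was found in 4.42%, 3.11% and 4.83% of thinned epithelial cells, against 0.233% of endothelial cells on the mean of the calves.

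IL1RN, the antagonist, was at 12.0, 1.29 and 0.490 in immune cells and at 0.0185, 0.0943 and 0.0609 in epithelial cells of calves 1, 2 and 3. The order of the calves was thus different in the 2 classes, and the immune value of calf 1 was 59 UMIs in 9 cells. Thinned epithelial cells were positive in 0.180%, 1.24% and 0.874% of cases. In mural cells 0 IL1RN UMIs were counted, and endothelial cells and fibroblasts held 5 and 1.

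The balance between decoy and signalling receptor differed in direction between cell classes. Epithelial cells held 6.92 IL1R2 UMIs for each IL1R1 UMI in calf 1 (95% exact interval 6.47 to 7.41), 7.20 in calf 2 (6.88 to 7.55) and 12.0 in calf 3 (11.4 to 12.5). In endothelial cells the ratios were 0.154, 0.208 and 0.147, all below 1. In immune cells the ratio was 0.367 in calf 2 and 0.535 in calf 3, and calf 1 had 1 IL1R1 UMI and 0 IL1R2 UMIs. These ratios include the keratin-led immune cluster, and without it the immune cells held 2 IL1R2 and 25 IL1R1 UMIs in calf 2 and 87 and 213 in calf 3. Against the accessory chain, epithelial cells held 18.9, 42.4 and 37.2 IL1R2 UMIs for each IL1RAP UMI in calves 1, 2 and 3.

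On the ligand side, epithelial cells held 1.19, 16.3 and 2.13 IL1RN UMIs for each UMI of IL1A and IL1B together. Immune cells held 0.488, 0.279 and 0.212, so the antagonist exceeded the 2 ligands in epithelial counts of calves 2 and 3 and stayed below them in immune counts of each calf. In calf 1 the epithelial interval, 0.873 to 1.63, included 1. IL1B exceeded IL1A in immune cells by 11.1, 6.03 and 3.34 to 1, and the reverse held in epithelial cells, with 0.0533, 0.258 and 0.0535 IL1B UMIs per IL1A UMI.

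**Figure D2:**
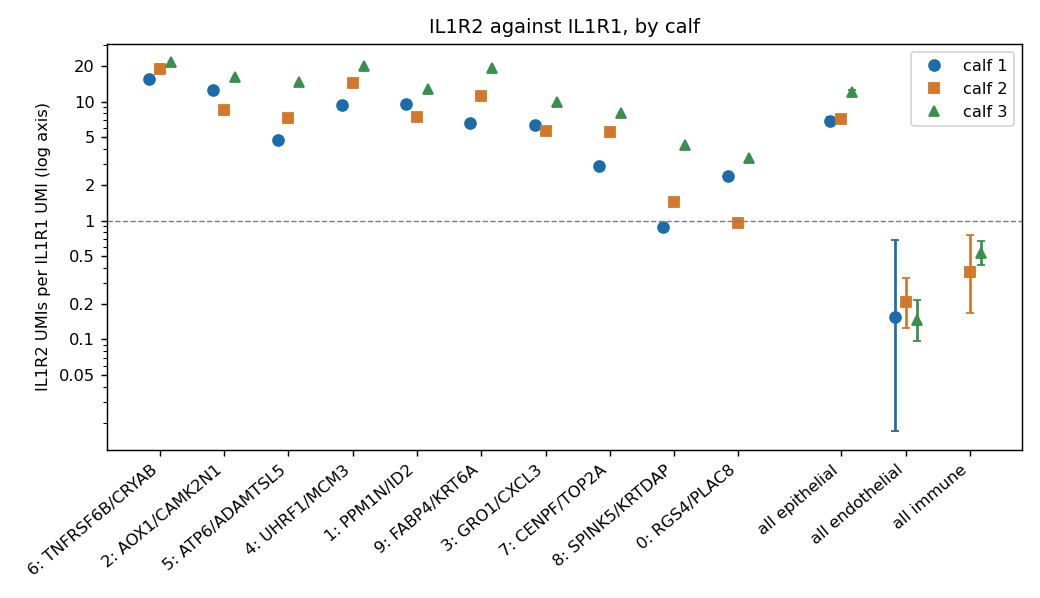
IL1R2 UMIs for each IL1R1 UMI (y axis, log scale) in 10 epithelial clusters, each named by 2 leading genes of its own, and in all epithelial, endothelial and immune cells (x axis), with 1 point per calf; bars on the class points are 95% exact intervals and the dashed line marks 1. The epithelial class lies between 6.92 and 12.0 and the endothelial class between 0.147 and 0.208, and among clusters the points run from 0.887 to 21.4.

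Epithelial cells were divided into clusters, and the 7 genes were kept out of the variable genes used for this. Cluster 6, led by TNFRSF6B, CRYAB and IGFBP3, had the highest mean IL1R2 level, with 2.49, 4.37 and 5.24 UMIs per 10000 in calves 1, 2 and 3 (4.03 ± 1.41). Cluster 2, led by AOX1, CAMK2N1, LY6D, COL17A1 and WNT10A, came next with 2.41, 2.96 and 5.62 (3.66 ± 1.72). These 2 clusters did not differ beyond the spread between calves, and cluster 2 was the higher of them in calf 3. Cluster 4, which was led by UHRF1 and MCM genes of DNA replication, was at 1.44, 3.86 and 3.93.

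The lowest levels lay in clusters with other leading genes. Cluster 0, led by RGS4, PLAC8 and KRT8, was at 0.422, 0.278 and 0.965 (0.555), which is 7.27-fold below cluster 6 on the means. Of the epithelial marker lists, the granule list scored highest in both cluster 6 and cluster 0, at 0.684 and -0.141 (mean log2 ratio to all epithelial cells). Cluster 8, led by SPINK5 and KRTDAP, genes of the spinous layer above the basal cells, was at 0.154, 0.348 and 1.29 (0.596). Cluster 7, led by the mitotic genes CENPF and TOP2A, was between these extremes at 0.654, 1.77 and 2.12. In each calf, every value of clusters 2 and 6 lay above those of clusters 0, 7 and 8. Positive cells after thinning were 39.8%, 52.1% and 62.4% of cluster 6, and 3.11%, 5.60% and 17.3% of cluster 8. The ratio of IL1R2 to IL1R1 UMIs ran from 15.5, 19.0 and 21.4 in cluster 6 to 0.887, 1.44 and 4.31 in cluster 8 and 2.37, 0.961 and 3.36 in cluster 0. An epithelial cluster of 21 cells led by COL3A1 and COL1A2, which are fibroblast genes, was left without a name.

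**Figure D3:**
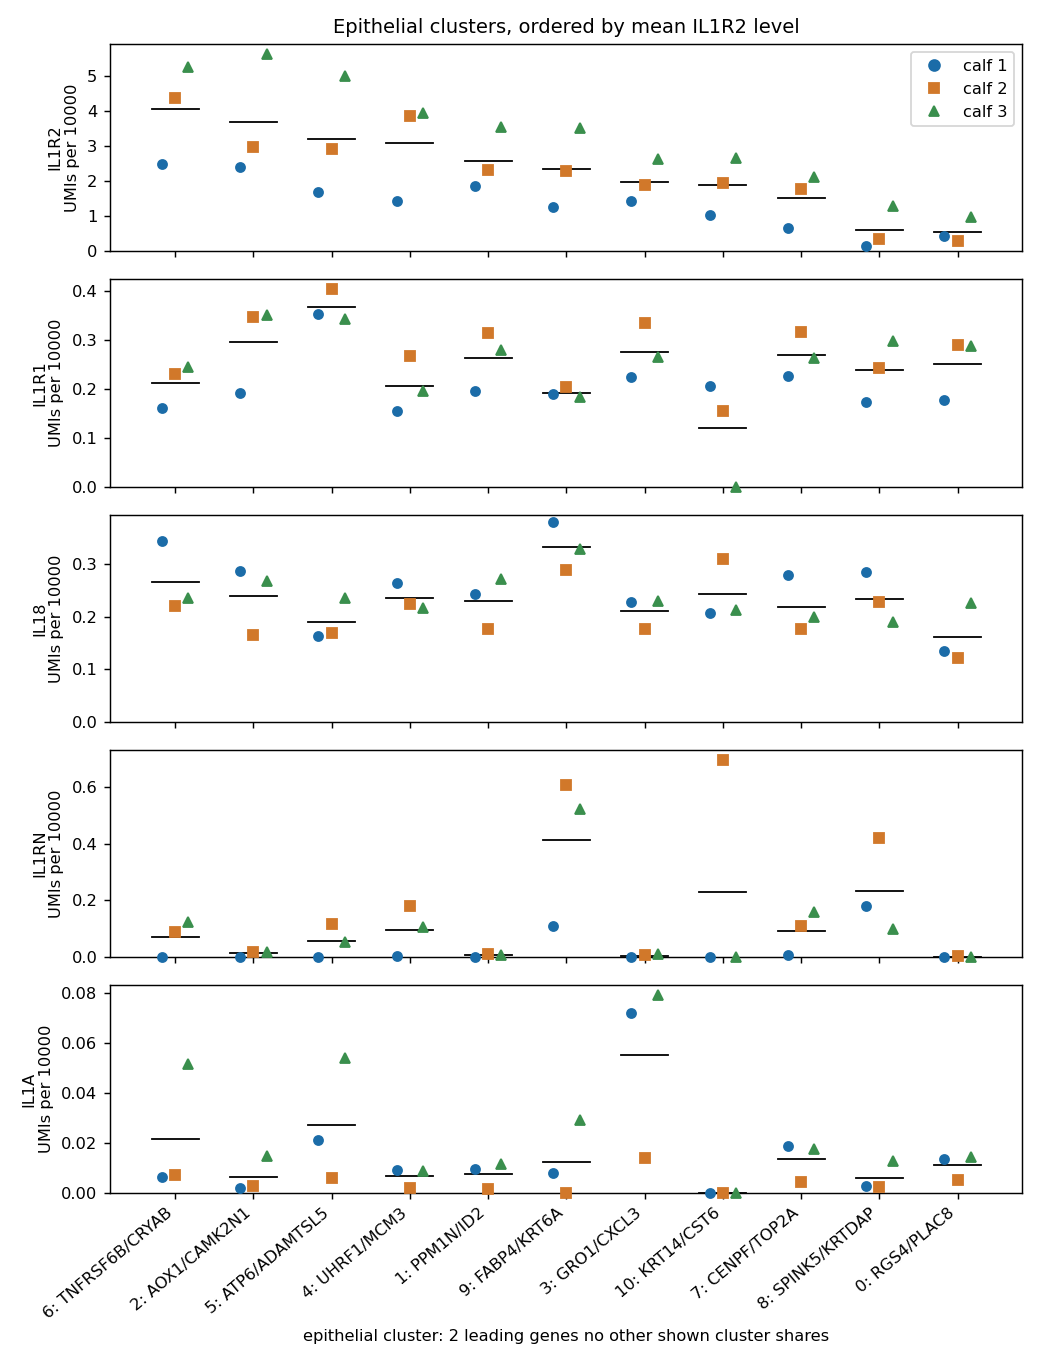
Levels of IL1R2, IL1R1, IL18, IL1RN and IL1A in UMIs per 10000 (y axes, linear) in 11 epithelial clusters (x axis, ordered by mean IL1R2 level and named by 2 leading genes that no other cluster shown shares), with 1 point per calf and a bar at the mean. IL1R2 falls from 4.03 in cluster 6 to 0.555 in cluster 0, IL1RN is highest in cluster 9 (0.413) and IL1A in cluster 3 (0.0549).

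IL1R1 varied less among the clusters, with means from 0.120 to 0.367. Its highest mean was in cluster 5, a cluster led by mitochondrial genes with a median of 3524 UMIs per cell, at 0.353, 0.404 and 0.343. The lowest was in cluster 10, a cluster of 172 cells with 5 IL1R1 UMIs. IL18 varied 2.07-fold, from 0.332 in cluster 9, with FABP4 and KRT6A among its leading genes, to 0.161 in cluster 0. Cluster 9 was at 0.381, 0.288 and 0.328 in calves 1, 2 and 3, and cluster 0 at 0.134, 0.122 and 0.226, so the 2 did not overlap. The share of positive cells after thinning did not keep this order, with 0%, 4.69% and 4.00% in cluster 9 and 3.34%, 2.50% and 5.12% in cluster 0. IL1RAP reached means of 0.108 in cluster 5 and 0.106 in cluster 0, a difference within the spread between calves.

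IL1RN and IL1A were each concentrated in particular clusters. IL1RN was at 0.111, 0.606 and 0.521 in cluster 9 (0.413) and at 0.182, 0.421 and 0.101 in cluster 8 (0.235), against 0.00275 in cluster 0. The single highest value, 0.694 in cluster 10 of calf 2, was 9 UMIs in 57 cells. Clusters 9 and 8 held 23.8% and 19.3% of the IL1RN-positive thinned epithelial cells. The rank of the 2 clusters changed between calves, since cluster 8 was the higher in calf 1 and cluster 9 in calves 2 and 3. The positive cells, 8, 106 and 67 in calves 1, 2 and 3, were also deeper than the negative ones, with medians of 19607.5, 10191 and 12886 UMIs before thinning against 10487, 6748 and 7965. IL1A was highest in each calf in cluster 3, led by the neutrophil chemokines GRO1, CXCL3 and CXCL2, at 0.0719, 0.0138 and 0.0789. That cluster held 119 of the 293 epithelial IL1A UMIs.

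Genes whose pattern over the 11 clusters was most like that of a member were taken from 2044 candidates by the mean over calves of the within-calf Pearson correlation, a description of points that share their library and depth. For IL1R2 these were IGFBP3 (0.88, and 0.95, 0.90 and 0.79 in calves 1, 2 and 3), HTRA1 (0.86), METTL7A (0.78), EHD2 (0.77) and CAMK2N1 (0.75). IGFBP3 encodes a carrier of insulin-like growth factors and HTRA1 a secreted protease. For IL1R1 the nearest gene was KAT6B, a histone acetyltransferase, at 0.85, and the others were UBL3, GPBP1, PPIP5K2 and ARID1A. For IL18 the nearest was EFHD2 at 0.66, and 3 of its 5 genes, MID1IP1, TSPO and MYL6, had correlations of only 0.22, 0.16 and 0.11 in calf 3.

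Co-detection within a cell was rare for most pairs. After thinning, 29.2%, 34.9% and 46.9% of epithelial cells in calves 1, 2 and 3 had a UMI of any of the 7 genes, and 2.65%, 3.39% and 5.24% had exactly 2 of them. IL1R1 and IL1R2 were found together in 36, 144 and 157 epithelial cells, where independence within a calf would give 37.4, 135 and 163. The observed numbers were 0.964, 1.07 and 0.961 times these, on both sides of 1, and their counting error was not estimated. The epithelial class is itself a mixture of clusters that differ in IL1R2. IL1R1 and IL1RAP, the 2 chains of the signalling receptor, were found together in 1, 6 and 7 epithelial cells, against 2.33, 5.68 and 7.72.

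IL1R2 and IL18 were found together in 63, 81 and 161 epithelial cells, which is 1.46, 1.12 and 1.11 times the number under independence. This was above 1 in 3 of 3 calves, most of all in calf 1, but the counting error of these ratios was not estimated. The mean of 1.23 became 1.08 when cells were thinned to 4000 UMIs. In immune cells, IL1A and IL1B were found together in 6 cells of calf 2 and 20 of calf 3, against 2.00 and 6.17 under independence, and IL1RN and IL1B in 7 and 14, against 2.86 and 6.77. IL1RN and IL1A were found together in 1 immune cell of calf 2 and 8 of calf 3, against 1.00 and 2.99. The immune class is itself a mixture of clusters.

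Within the immune class the ligands were carried by the myeloid clusters. Cluster 2, macrophage-like (107 cells led by FCN1 and C1Q genes), held IL1B at 6.92 UMIs per 10000 over the pooled calves (95% Poisson interval 6.23 to 7.65), and the dendritic cell-like cluster 0 (245 cells with FCER1A and CD1E among its leading genes) at 2.80 (2.55 to 3.07). Together these 2 clusters gave 40.8% and 50.2% of the immune IL1B UMIs. In the macrophage-like cluster the macrophage list scored 2.22 and the monocyte or neutrophil list, which holds FCN1, 1.87 (mean log2 ratio to all immune cells). Monocytes and macrophages were therefore not told apart there. The macrophage-like UMIs came from 5, 14 and 88 cells, with 110, 105 and 160 UMIs in calves 1, 2 and 3, so 5 cells of calf 1 supplied 110 of its 375 UMIs. In calf 3 alone the level of this cluster was 3.74, and the dendritic cell-like cluster was at 2.76 in calf 2 and 2.82 in calf 3.

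IL1RN was more narrowly placed, with 3.69 (3.20 to 4.24) in the macrophage-like cluster, 69.0% of the immune IL1RN UMIs, and 0.346 (0.262 to 0.449) in the dendritic cell-like cluster. Of the 200 IL1RN UMIs in the macrophage-like cluster, 59 came from 5 cells of calf 1, and in calf 3 alone its level was 2.43. IL1A was at 1.24 and 0.820 in the same 2 clusters, and IL18 at 1.72 and 1.26. In the T cell-like clusters 1 (202 cells led by CCL5 and CTSW) and 3 (59 cells led by IL17F and IL17A), 0 UMIs of IL1A and IL1B were counted, which allows at most 0.0720 and 0.141 per 10000 by the Poisson interval.

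IL1R1 had another place. Cluster 3, with the cytokine genes IL17F and IL17A at its head, carried it at 2.10 (1.58 to 2.73), the highest level among immune clusters, from 55 UMIs in 59 cells, 47.5% of which were positive without thinning. The dendritic cell-like cluster followed with 0.753 (0.627 to 0.898). In the IL17F and IL17A cluster 1 IL1R2 UMI stood against the 55 of IL1R1, a ratio of 0.0182, while the macrophage-like cluster held 15 of each. Of this cluster's cells, 0, 6 and 53 came from calves 1, 2 and 3, so the level is close to that of 1 animal. IL1R2 was highest in the keratin-led cluster, at 2.26, with 37 of the 126 immune IL1R2 UMIs.

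**Figure D4:**
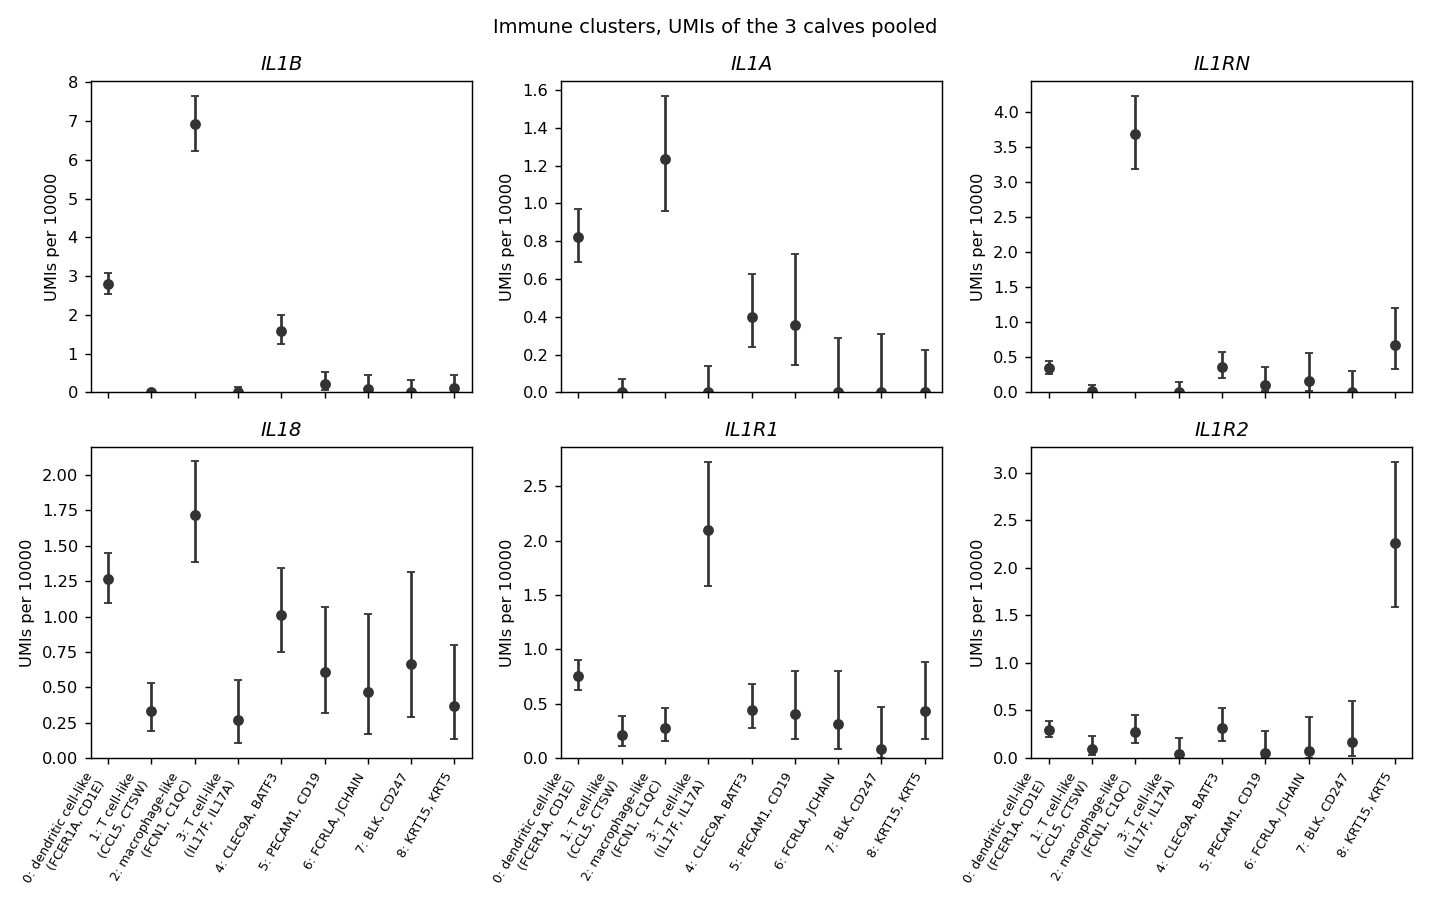
Levels of IL1B, IL1A, IL1RN, IL18, IL1R1 and IL1R2 in UMIs per 10000 (y axes, linear) in 9 immune clusters (x axis), with the UMIs of the 3 calves pooled and 95% Poisson intervals for counting error only. IL1B and IL1RN peak in the macrophage-like cluster (6.92 and 3.69), IL1R1 in the T cell-like cluster led by IL17F and IL17A (2.10), and IL1R2 in the keratin-led cluster (2.26).

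Other genes of the pathway were counted by the same measure. Of 14 other ligands and receptors of the family, only SIGIRR, a receptor that dampens signalling, reached 0.1 UMIs per 10000 in epithelial cells (0.172 ± 0.0609), and IL33, an alarm ligand of endothelium, was at 0.296 in endothelial cells. Of 23 genes of the signalling chain and NF-kB, 14 passed 0.1 in the epithelium, 19 in endothelium and 20 in immune cells. Of 14 matched genes of ligand maturation and shedding, 4 passed in epithelial and 9 in immune cells, and CASP1 and AIM2 had no matching symbol. NLRP3 and NLRP1, sensors that drive the maturation of IL-1 beta, were at 0.186 and 0.406 in immune cells and had at most 0.000290 in any epithelial sample. PYCARD, the adaptor of these sensors, was at 2.17 in immune and 0.159 in epithelial cells. ADAM10, a protease that sheds receptors, was at 1.17 in epithelial and 2.77 in endothelial cells. Over all genes, 23.9% passed 0.1 in the epithelium, 26.6% in endothelium and 25.3% in immune cells. Of 22 genes known to respond to interleukin-1, 6 passed in epithelial and 13 in immune cells.

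To see which other genes went with the decoy, epithelial cells with and without an IL1R2 UMI after thinning were compared, with counts summed per calf and side and the calf kept as a block. The positive side held 979, 2323 and 3004 cells of calves 1, 2 and 3 and the negative side 3476, 6242 and 4664. The quasi-likelihood test of edgeR, adjusted after Benjamini and Hochberg, called 769 of 10658 genes (7.22%), of which 352 (3.3%) were higher where IL1R2 was detected and 417 (3.91%) were lower. A negative cell may carry undetected IL1R2, and cells of both sides come from the same animals. Sides matched within clusters, which gives both the same cluster makeup, gave 191 calls, 101 higher and 90 lower. Matching also left fewer cells, with 979 negative cells in calf 1 where 3476 had been compared. Without calf 2 there were 356 calls and without calf 3 464, DESeq2 made 161, and without the calf as a block edgeR made 0, with 133 genes at an unadjusted p under 0.05.

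IL1R2-positive cells had more transcripts of basal cell genes. The gene lists here and below were chosen with earlier results of these cells known, so counts of called genes within them are a description. All 7 tested genes of the basal list were called higher, where 3.3% of all tested genes were. Their median log2 change was 0.37 against -0.01 over all genes. KRT14, the basal keratin, was at 1511, 2028 and 1334 CPM in positive cells of calves 1, 2 and 3 and at 936, 1031 and 1056 in negative cells, a log2 change of 0.69 ± 0.06 (SE, adjusted p = 1.14e-22, edgeR). IGFBP3 had the largest rise among the genes named by the rule, with 489, 1061 and 148 against 217, 509 and 82.8 CPM, a log2 change of 1.05 ± 0.06 (adjusted p = 1.70e-37, edgeR). CAMK2N1 (0.93), METTL7A (0.79), WNT10A (0.75), ADAMTSL5 (0.72), DLK2 (0.69), UGT1A1 (0.61), ALDH1A1 (0.57) and ECM1 (0.55) were the others, and each was higher in 3 of 3 calves. WNT10A is a ligand of Wnt signalling and ALDH1A1 makes retinoic acid. IGFBP3, METTL7A and CAMK2N1 were also among the genes nearest to IL1R2 over the clusters of these cells. DESeq2 called 5 of the 7 basal genes higher, and 80 of all 10658 genes. With sides matched within clusters 4 basal genes were called higher, where 101 of all 10115 genes were. The median log2 change of the list was then 0.17, and IGFBP3 was at 0.49 and KRT14 at 0.30. Without calf 2 the number of basal genes called was also 4.

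Spinous and mitotic genes were lower in IL1R2-positive cells. In the spinous list 7 of 9 tested genes were called lower, where 3.91% of all tested genes were, and KRT10 and DSG1 did not pass. The median log2 change of the list was -1.08, against -0.01 over all genes. KRTDAP, a keratinocyte differentiation gene, was at 20.9, 39.4 and 0.166 CPM in positive cells and 229, 212 and 7.50 in negative cells of calves 1, 2 and 3, a log2 change of -2.76 ± 0.11 (adjusted p = 3.99e-65, edgeR). SPINK5, an inhibitor of the proteases of the shedding layer, and A2ML1, a protease inhibitor, changed by -2.88 ± 0.14 and -2.85 ± 0.16 (SE). The keratins KRT6A (-1.13), KRT19 (-0.80) and KRT4 (-0.79), the protease inhibitor CSTB (mean CPM 37.6 against 73.8) and HPGD (-0.86), which breaks down prostaglandins, were also lower in 3 of 3 calves. All 6 mitotic genes were lower, and CENPF, a centromere gene, was at 84.8, 37.7 and 43.1 CPM in positive and 212, 41.9 and 72.1 CPM in negative cells. DESeq2 called 5 of the 9 spinous and 2 of the 6 mitotic genes lower, and 81 of all 10658 genes. With matched clusters the spinous count was 7 of 9 with a median log2 change of -0.54, and KRTDAP was at -1.14. The mitotic count became 1 of 6, where 90 of all 10115 genes were called lower. In the granule list of 4 genes, DLK2 was higher and CLDN1, a tight junction gene, was lower.

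Genes that respond to interleukin-1 were lower in IL1R2-positive cells, as far as they passed the test. Of 22 such genes 13 were tested, and 8 were called lower and 0 higher, where 3.91% of all tested genes were called lower. The median log2 change was -0.92, against -0.01 over all genes. Of the 13, 9 had an unadjusted p under 0.05 and DESeq2 called 3. The neutrophil chemokine CXCL3 was at 36.8, 33.1 and 70.6 CPM in positive and 78.3, 87.2 and 140 CPM in negative cells, a log2 change of -1.12 ± 0.08 (adjusted p = 2.32e-28, edgeR). CXCL2 (-1.57 ± 0.20), CXCL5 (-1.85 ± 0.39) and GRO1 (-1.02 ± 0.11), related chemokines, were lower in 3 of 3 calves. S100A8 (-0.92 ± 0.07) and S100A9 (-0.97 ± 0.08), calcium-binding proteins, were lower too, and S100A8 is also in the spinous list. DESeq2 called neither of them (adjusted p = 0.228 and 0.308). CCL20 (-0.78 ± 0.19) was lower in 2 of 3 calves, and PTGS2 (-0.98 ± 0.30) had 0 CPM in positive cells of calf 1. With matched clusters 6 of 13 were lower, where 90 of all 10115 tested genes were, and the median log2 change of the list was -0.36. Another random thinning also gave 6 of 13.

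Of 22 tested genes of the signalling chain and NF-kB, edgeR called 3, in both directions, where 7.22% of all genes were called, and DESeq2 called 0. RELB, an NF-kB subunit, was higher (0.69 ± 0.22) and TNFAIP3 and NFKBIA, inhibitors of NF-kB, were lower (-0.56 ± 0.16 and -0.33 ± 0.07), with a median of -0.02 over the list. RELB was not called with library size alone, with another random thinning, with at least 2 IL1R2 UMIs for a positive cell, with mitotic cells left out, with matched clusters or when any 1 calf was left out, and without calf 3 the list had 0 calls by edgeR. Of 10 tested genes of maturation and shedding 0 were called by edgeR and 0 by DESeq2, with 2 at an unadjusted p under 0.05. Of 3 tested other family genes 0 were called by either tool, and 0 had an unadjusted p under 0.05.

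**Figure D5:**
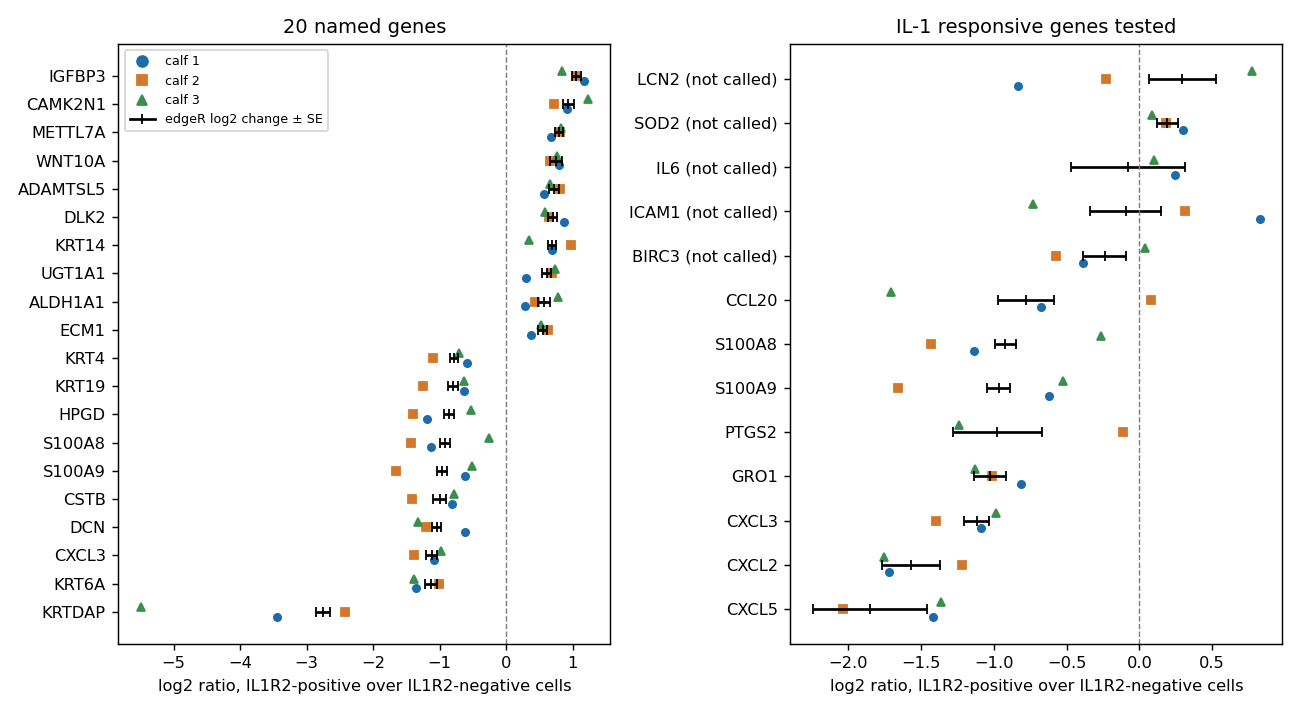
Log2 ratio of IL1R2-positive over IL1R2-negative epithelial cells (x axes) for the 20 genes named by the rule (left) and the 13 tested genes that respond to interleukin-1 (right), with 1 point per calf and the edgeR log2 change ± SE in black; a calf with 0 CPM on either side has no point. IGFBP3 is at 1.05 and KRTDAP at -2.76, and CXCL3 is at -1.12 with all 3 calves below 0.

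Markers of other classes moved in part with this split. Of the 6 fibroblast genes, DCN, COL3A1 and SPARC were lower in positive cells, and DCN was at 321, 212 and 149 CPM against 495, 489 and 374 (log2 change -1.04 ± 0.07). The summed level of the fibroblast list in epithelial cells was 2.78 to 4.06 UMIs per 10000, against 518 to 731 in fibroblasts. S100B of the glial list, ITM2C of the plasmacytoid list and S100A9 of the monocyte list were lower as well. DCN was also among the leading genes of epithelial cluster 0, where the mean IL1R2 level was lowest. When cells with markers of another class were left out, 750 genes were called and DCN stayed at -1.04. Of the endothelial, mural and immune lists, 0 of 2, 0 of 1 and 0 of 1 tested genes were called by edgeR and 0 by DESeq2, with 0, 1 and 0 at an unadjusted p under 0.05. Positive cells also had more mitochondrial UMIs, with medians of 5.71%, 6.62% and 6.44% against 5.25%, 5.29% and 5.17%. The part of the mitochondrial share in the gene differences was not tested.

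The other members were followed across the split as values without a test. IL18 was at 32.2, 17.6 and 27.5 CPM in IL1R2-positive cells against 20.9, 15.1 and 22.7 in negative ones, which is 0.36 ± 0.12 (SE) on the log2 scale, and it was higher in 3 of 3 calves. IL1R1 (0.03 ± 0.11), IL1RN (0.30 ± 0.24), IL1RAP (-0.25 ± 0.20) and IL1A (-0.02 ± 0.41) had differences that were smaller in relation to their SE. With sides matched within clusters, the IL18 difference was 0.35 ± 0.13.

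The split of epithelial cells by IL18 had 197, 266 and 370 positive cells in calves 1, 2 and 3, fewer than the IL1R2 split, so the numbers of calls of the 2 splits are not comparable. For IL18, edgeR called 7 of 10312 genes (0.0679%), 0 higher and 7 lower, 470 genes had an unadjusted p under 0.05, and DESeq2 called 0. CXCL3 was lower in IL18-positive cells, at 55.8, 32.0 and 62.2 CPM against 69.8, 73.8 and 115 (log2 change -0.85 ± 0.15, adjusted p = 0.000214, edgeR). CXCL2 (-2.64 ± 0.63) and the mitotic genes MKI67 (-1.45 ± 0.29) and TOP2A (-0.88 ± 0.20) were also called. Another random thinning called 24 genes, 22 of them higher, of which 2 were shared with the 7, and without calf 3 a single gene was called, which was not 1 of the 7. Thinning to 4000 UMIs called 48, 37 of them higher and 11 lower. Matched clusters, with fewer cells and 5417 genes tested, called 0. CXCL3 was not called after that thinning (log2 change -0.31, adjusted p = 0.064, edgeR), without calf 2 (-0.70, adjusted p = 0.114, edgeR), without calf 3, with matched clusters or by DESeq2. Cells split by IL1RN were not compared, since calf 1 had 8 positive cells and the minimum was 50 per side.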

How the data were processed

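Rumen cells of 3 newborn calves were measured by droplet single-cell RNA-seq, and each library came from a separate calf. The authors deposited raw counts of UMIs per gene and barcode, which Cell Ranger 3.1.0 had made before any quality filter or normalization. All values below were computed from these counts. Kept barcodes had 500 to 4000 genes, no more than 50000 UMIs and a mitochondrial share of up to 40%, and doublets were removed by a score against simulated doublets (191, 908 and 879 barcodes in calves 1, 2 and 3). Counts were log-normalized, and 2000 variable genes without the 7 members were projected on principal components, which Harmony aligned over calves in a version rewritten in Python. Clusters were taken on a shared-nearest-neighbour graph and named from marker lists, so classes and clusters are rebuilt and may differ from those of the study.

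The members, marker lists and gene lists were chosen with earlier results of these data known. Positive cells were counted after thinning to 2000 UMIs, since shares depend on depth. Sums per calf and side were fitted with edgeR 4.0.16 (filterByExpr, TMM, quasi-likelihood test, calf as a block, Benjamini-Hochberg adjustment, threshold 0.05), which was tested on simulated data. DESeq2 1.42.0 was an alternative. The gene that split the cells was left out of the counts, and members carry no p. Besides the members, the text names the 10 genes with the largest and the 10 with the smallest log2 change among called genes with a symbol, the same sign in 3 calves and a mean of at least 50 CPM. From the lists it names genes that were called or had the highest levels. Likeness used genes with at least 0.5 UMIs per 10000 in epithelial cells and clusters of at least 30 cells, on log2(UMIs per 10000 + 0.1). Python 3.11.15 (numpy 2.4.6, scipy 1.17.1) and R 4.3.3 were used. Every 3′ UMI total behind a level limits its precision, and intervals cover counting error only. The alternatives were another clustering without Harmony, a marker gate in place of clusters, no doublet removal, a limit of 20% mitochondrial UMIs, other thinning depths and seeds, other normalization and filters, and each calf left out. Matching within clusters and leaving out cells with markers of another class or the keratin-led immune cluster were added after the data had been seen.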

Additional observations from a re-analysis of the deposited data

How the results depend on the processing

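The 7 genes were also ranked over classes without each calf, without doublet removal, with at most 20% mitochondrial UMIs, without Harmony, by a marker gate, as a mean over cells and without cells carrying other-class markers. IL1R2 stayed highest in epithelial cells, and IL1RN, IL1A, IL1B and IL18 in immune cells, under each of these, while IL1R1 moved from fibroblasts to endothelial cells with the marker gate and to immune cells without calf 1, and IL1RAP from fibroblasts to epithelial cells without calf 1. The marker gate, which calls a class from at least 3 marker UMIs, gave an immune IL18 level of 0.530. Positive shares moved with depth by construction: IL1R2 in epithelial cells was 17.2% after thinning to 1000 UMIs and 56.2% without thinning, IL1RAP 0.723% and 6.02%, and without thinning the immune shares of IL1A and IL18 were 29.1% and 31.6%. For the IL1R2 split, the count of called genes (769) was 161 with DESeq2, 191 with matched clusters, which held fewer cells, and 356 to 802 with 1 calf left out. Without the calf as a replicate block, edgeR called 0 for the IL1R2 split and 0 for the IL18 split, with 133 and 81 genes at an unadjusted p under 0.05. All 20 genes named by the rule were called in each alternative except DESeq2, which called 18 and left out S100A8 and S100A9, and the fit without the block, which called 0. Their changes were smaller with matched clusters, as in KRT4 (log2 -0.28 against -0.79) and S100A9 (-0.36 against -0.97). Library size alone gave 718 calls, 281 higher and 437 lower. For the IL18 split, the count (7) was 0 with DESeq2, 14 with library size alone (5 higher, 9 lower) and 48 with thinning to 4000 UMIs (37 higher, 11 lower). It was 24 with another random seed and 1 to 5 with 1 calf left out. Matched clusters gave 0, but with fewer cells, and 5417 genes were tested against 10312 in the main fit. A split by at least 2 IL18 UMIs could not be fitted, since it left 10, 5 and 6 positive cells. The cause of these changes was not tested. The number of cells, 9, limits the immune values of calf 1.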

Other observations

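The receptor chains of IL-18 were detected mainly in immune cells. IL18RAP, a chain of the IL-18 receptor, was at 0, 0.136 and 0.225 UMIs per 10000 in immune cells of calves 1, 2 and 3 and at 0.000259 on the mean in epithelial cells, and IL18R1, the other chain, was at 0.0647 in immune cells of calf 3 and at 0 in every other class and calf. IL18BP, a soluble inhibitor of IL-18, had its highest mean in endothelial cells, at 0.121, 0.170 and 0.248, against 0.0161 in epithelial cells.

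Among the immune clusters left without a name, the cluster of 58 cells with CLEC9A and BATF3 among its leading genes, 54 of them from calf 3, carried IL1B at 1.58 (95% Poisson interval 1.25 to 1.99) and IL18 at 1.01 (0.747 to 1.34), with the fibroblast genes SPARC and MGP also among its leading genes. NFKBIA, an inhibitor of NF-kB whose transcript is induced by it, was at 25.8, 20.0 and 20.4 in immune cells, 8.01, 10.2 and 11.9 in endothelial cells and 1.25, 2.73 and 3.49 in epithelial cells, and these 3 classes did not overlap.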
